A study of Mus musculus with 11 samples.

Results

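The transcripts of 10 megakaryocyte and platelet genes were followed in sorted mouse bone marrow cells: Itga2b, Itgb3, Gp9, Gp1bb, Gp6, Treml1, Pf4, Ppbp, Fli1 and Nfe2. They were chosen by symbol, and all 10 had a row among the 55291 gene symbols of the deposited count table. The cells were lineage-negative, cKit-positive and Sca-1-positive (LSK), the fraction of marrow that holds stem cells and multipotent progenitors. They came from 4 mice labelled Phf6R274X Tg (Tg), 3 Phf6 knockout mice (KO) and 4 wild-type mice (WT). Every mouse is labelled strain C57BL/6, one library was made from the total RNA of each, and no age, sex, treatment or batch is given. The labels name neither the promoter that drives the transgene nor the design of the knockout allele. Phf6 encodes a plant homeodomain protein of chromatin, and the X of R274X stands for a premature stop.

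Megakaryocytes are the marrow cells that shed platelets. Their surface carries the fibrinogen receptor, an integrin made of the products of Itga2b (CD41) and Itgb3 (CD61), the receptor for von Willebrand factor, of which Gp9 and Gp1bb encode subunits, and the collagen receptor of Gp6. Their granules hold the chemokines encoded by Pf4 and Ppbp and the receptor-like protein encoded by Treml1, while the transcription factors of Fli1 (ETS family) and Nfe2 (a basic leucine zipper protein) drive the programme. Some of these genes, Itga2b among them, are known to be transcribed already in stem cells and early progenitors, so that their presence in LSK cells does not by itself mark a megakaryocyte.

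Totals per library ran from 20990446 to 45632018 counts, and 17183 genes passed the filter on low counts and were tested in one fit of all 11 libraries. Genes whose p, after Benjamini-Hochberg adjustment over all of them, was under 0.05 in edgeR's quasi-likelihood test count as called. Values are CPM, read counts scaled to a common library size with TMM factors, which correct for differences in library composition. Phf6 itself averaged 220.1 ± 46.1 CPM in Tg (SD, n = 4), 19.4 ± 4.33 in KO (n = 3) and 121.2 ± 14.2 in WT (n = 4), and so was lowest in KO, as its label says; transcripts of the transgene and of the native gene cannot be told apart in Tg. The sort markers Kit, Ly6a (Sca-1), Cd34, Flt3 and Ptprc were present in every library, with a lowest value of 20.04 CPM for Ly6a. Of lineage genes that the sort should remove, Cd3e averaged 0.133 CPM in Tg, 0.588 in KO and 0.555 in WT, whereas Ighm averaged 173.1 CPM in Tg, 3068 in KO and 1703 in WT. Cd3e was 1 of 6 T and NK cell genes, of which 5 lay lower in Tg than in KO and WT. The other, Nkg7, averaged 186.2 CPM in Tg, 71.5 in KO and 72.8 in WT. It was called higher in Tg against KO and against WT (2.63% and 2.54% of all genes), and 2 of the 6 were called lower in each (3.06% and 2.39%). The sum of the 6 genes was 113.1 to 250.4 CPM in Tg, 75.7 to 89.4 in KO and 68.6 to 97.3 in WT.

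Of the 10 genes, 8 passed the filter, and Gp1bb and Gp6 did not. Gp6 had 1, 0, 0 and 0 counts in the Tg libraries, 3, 4 and 3 in the KO libraries and 0, 1, 1 and 0 in the WT libraries. These counts were too low to test, and no difference between genotypes is read from them. Gp1bb had 1, 0, 8 and 6 counts in Tg, 3, 0 and 3 in KO and 0, 3, 0 and 0 in WT. A count of 0 allows up to 3 counts per library, which corresponded to 0.0657 to 0.143 CPM and covers counting error only. Gp6 exceeded it in KO replicate 2 alone, and Gp1bb in Tg replicates 3 and 4 alone (0.263 and 0.184 CPM); no fold was computed for either gene. Reads of Gp1bb are uncertain besides, since 92.9% of its exonic bases are shared with overlapping genes on the same strand.

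The 4 promoter windows printed here show what precedes the start of Itga2b, Gp9, Pf4 and Ppbp. Itga2b was called in Tg against KO, whereas Gp9 was not called by edgeR in any comparison, though its Tg and KO libraries did not overlap. The libraries of the neighbouring chemokine genes Pf4 and Ppbp overlapped in every comparison. Each window is the 250 bases before the RefSeq start, 5′ to 3′ on the gene's own strand (GRCm38.p6). They lie at chr11:102469884-102470133 (minus strand, Itga2b), chr6:87777820-87778069 (plus, Gp9), chr5:90772185-90772434 (plus, Pf4) and chr5:90768268-90768517 (plus, Ppbp). GENCODE starts Itga2b further upstream, at 102470122, so that most of its window lies inside the gene as annotated there. Capitals mark GATAA, the core read by GATA factors, and GGAAG, a core read by ETS factors such as Fli1, on either strand, so that the reverse strand reads TTATC and CTTCC.
Itga2b: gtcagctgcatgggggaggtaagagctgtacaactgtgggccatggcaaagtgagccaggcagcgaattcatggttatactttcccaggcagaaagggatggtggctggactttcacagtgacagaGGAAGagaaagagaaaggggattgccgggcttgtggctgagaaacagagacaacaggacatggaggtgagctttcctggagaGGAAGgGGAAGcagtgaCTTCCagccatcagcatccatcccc
Gp9: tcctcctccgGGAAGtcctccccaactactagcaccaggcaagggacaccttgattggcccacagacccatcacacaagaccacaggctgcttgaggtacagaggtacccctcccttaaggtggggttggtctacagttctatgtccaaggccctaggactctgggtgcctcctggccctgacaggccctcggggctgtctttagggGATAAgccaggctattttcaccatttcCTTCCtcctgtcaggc
Pf4: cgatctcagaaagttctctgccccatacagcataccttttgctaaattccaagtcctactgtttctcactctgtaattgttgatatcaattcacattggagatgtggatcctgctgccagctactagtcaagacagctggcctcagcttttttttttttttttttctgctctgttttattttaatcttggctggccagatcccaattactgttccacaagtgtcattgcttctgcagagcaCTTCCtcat
Ppbp: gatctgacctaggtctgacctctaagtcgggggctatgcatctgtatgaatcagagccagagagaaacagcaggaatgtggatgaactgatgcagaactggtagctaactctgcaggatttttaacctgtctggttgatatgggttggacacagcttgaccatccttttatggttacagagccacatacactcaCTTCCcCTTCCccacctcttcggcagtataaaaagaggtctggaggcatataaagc

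Windows were at hand for 7 of the 10 genes, and Itgb3, Fli1 and Nfe2 are named only. GGAAG occurred in 6 of the 7 windows (all but Gp6) and in 64.1% of the 32817 mouse promoter windows of the same length. GATAA occurred in Gp9 and Gp6 alone of the 7 and in 22.6% of all windows. TGAGTCA, a core that NF-E2 shares with AP-1 factors, was searched on both strands too and occurred in none of the 7 and in 4.46% of all windows. Itga2b held 4 of the GGAAG matches, at 124 to 120, 42 to 38, 36 to 32 and 25 to 21 bases upstream, and Pf4 held 1, at 9 to 5 bases upstream. In Gp9 the GATAA match lay 43 to 39 bases upstream. The matches are a description of letters, and the motifs did not overlap one another in these windows.

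The levels of the genes within LSK cells differed widely once divided by exon length (CPM per kilobase of exon, GENCODE M21). In WT, Fli1 held 67.9 ± 2.73 and Nfe2 58.6 ± 5.70 CPM per kilobase (SD, n = 4), Pf4 22.1 ± 14.4, Itga2b 17.6 ± 4.79, Gp9 7.82 ± 0.996, Itgb3 6.03 ± 1.48, Treml1 2.13 ± 1.26 and Ppbp 0.554 ± 0.288. Pf4 and Gp9 had overlapping SDs, but Pf4 has fewer exonic bases (721 and 881) and held more CPM in each WT library. Its WT libraries held 8.13, 31.2, 10.6 and 13.9 CPM, and those of Gp9 7.82, 6.95, 7.11 and 5.70. The SDs of Pf4 and Itga2b overlapped, as did those of Gp9 and Itgb3, so neither of these pairs has a firm order. The transcription factor genes therefore stood highest and the platelet chemokine gene Ppbp lowest of the 8. Pf4 and Ppbp lie 2371 bases apart on chromosome 5, in the same orientation, and their levels per kilobase were still far apart in all 3 genotypes (16.8 ± 6.87 and 0.455 ± 0.255 in Tg, 16.3 ± 9.67 and 0.651 ± 0.180 in KO).

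Both subunit genes of the fibrinogen receptor were higher in Tg than in KO, and every Tg library lay above every KO library, also when CPM was computed from plain library totals. Tg libraries lay above every WT library as well with TMM scaling, but not with plain totals. Itga2b (chromosome 11, 102453297 to 102470122, minus strand, GRCm38) held 146.8, 128.5, 193.7 and 149.1 CPM in the Tg libraries, 85.7, 46.3 and 69.4 in the KO libraries and 69.5, 117.7, 119.1 and 77.6 in the WT libraries. Itgb3 (chromosome 11, 104608000 to 104670476, plus strand) held 55.4, 50.6, 73.4 and 113.3 CPM in Tg, 41.1, 18.3 and 29.9 in KO and 29.96, 47.8, 28.6 and 36.1 in WT. Tg replicate 4 was the highest library for Itgb3 and Tg replicate 3 for Itga2b, so the genes did not peak in the same mouse. With plain totals the lowest Tg library, replicate 2, held 118.0 CPM of Itga2b and 46.5 of Itgb3, against highest WT values of 123.4 and 50.1. In a bulk sample, more cells of a type and more RNA per cell cannot be told apart.

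**Figure D1:**
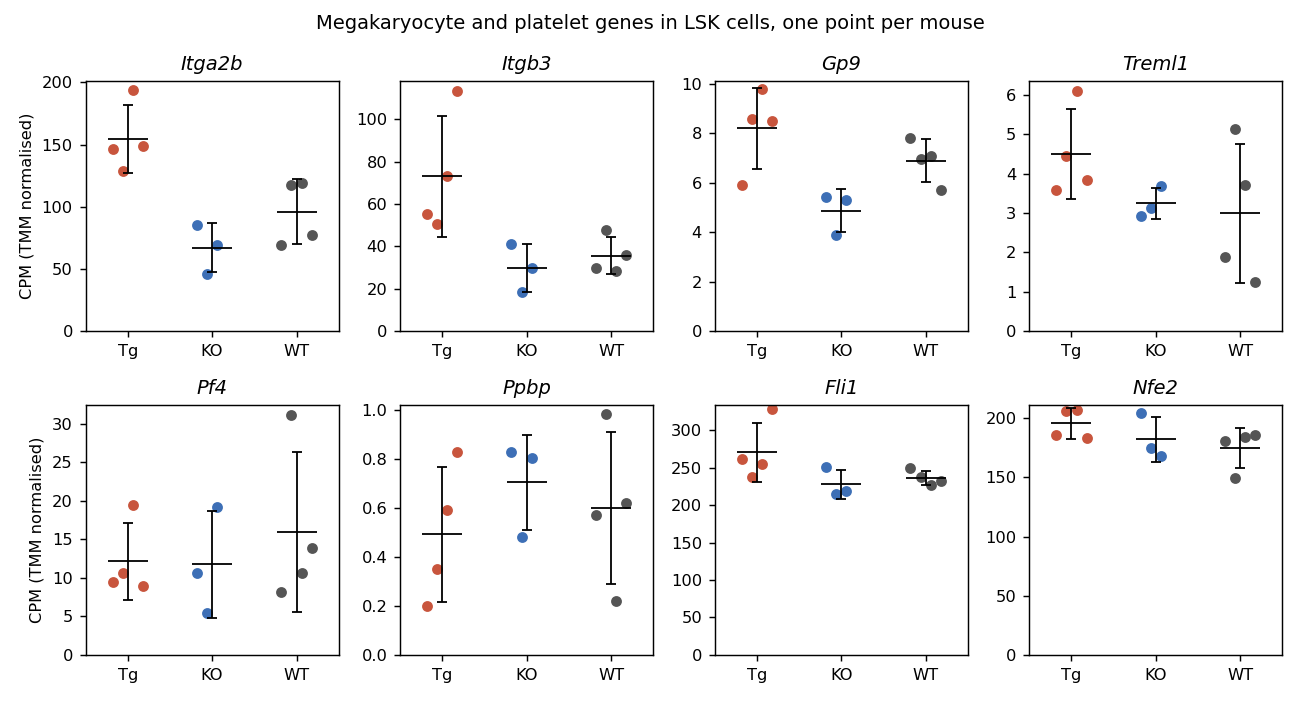
CPM (TMM normalised, linear axes from 0) of the 8 tested genes in each mouse, with Tg at the left, then KO and WT; points are libraries, bars the mean and SD. The Tg points of Itga2b (128.5 to 193.7 CPM) and Itgb3 (50.6 to 113.3) sit above all KO and WT points with this scaling (with plain totals the Tg and WT ranges overlap), while those of Pf4, Ppbp, Fli1, Nfe2 and Treml1 overlap with both.

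In the comparison of Tg with KO, 2 of the 8 tested genes were called, both higher, where 2.63% of all 17183 genes were called higher and 5.69% either way. Itga2b rose by 1.20 on the log2 scale (SE 0.25, 95% interval 0.66 to 1.74, adjusted p = 0.0192, edgeR). Itgb3 rose by 1.30 (SE 0.33, interval 0.58 to 2.01, adjusted p = 0.0419). Gp9, the small subunit of the von Willebrand factor receptor, held 5.93, 8.58, 9.78 and 8.51 CPM in Tg and 5.44, 3.90 and 5.30 in KO; its groups did not overlap, but it missed the threshold (log2 fold change 0.75, SE 0.20, adjusted p = 0.0550). DESeq2 called all 3, but called 1874 genes in all, where edgeR called 978. In edgeR 4 of the 8 genes had an unadjusted p under 0.05, as did 21.7% of all genes. Non-overlapping groups with Tg higher, found for Itga2b, Itgb3 and Gp9, occurred in 9.80% of all genes tested. The median log2 fold change of the 8 genes was 0.36, against 0.013 over all genes. Leaving out KO replicate 2 or KO replicate 3 ended the call of Itga2b (adjusted p = 0.0773 and 0.0656), and leaving out Tg replicate 1 brought Gp9 under the threshold (adjusted p = 0.0424). The call of Itgb3 was lost without any of 8 libraries (KO replicates 1, 2 and 3, Tg replicates 1, 3 and 4, WT replicates 1 and 4; adjusted p up to 0.150), and in a fit of Tg and KO alone (adjusted p = 0.0587).

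Against WT, the same integrin genes lay higher in Tg but none of the 8 was called by edgeR, where 4.92% of all genes were called. Itga2b had a log2 fold change of 0.69 (SE 0.22, 95% interval 0.20 to 1.17, adjusted p = 0.0993) and Itgb3 of 1.04 (SE 0.29, interval 0.39 to 1.68, adjusted p = 0.0674). These were the 2 genes with an unadjusted p under 0.05 (22.1% of all genes), and those whose groups did not overlap with TMM scaling, which was so with Tg higher for 4.50% of all genes; with plain totals both overlapped. DESeq2 called both (adjusted p = 0.0202 for Itga2b and 0.0378 for Itgb3), but called 1844 genes in all, where edgeR called 846. By limma-voom 0 of the 8 were called, and edgeR without a filter on low counts called Itgb3 (adjusted p = 0.0425). Gp9 averaged 8.20 ± 1.62 CPM in Tg and 6.89 ± 0.878 in WT (SD, n = 4 each), with overlapping groups and a log2 fold change of 0.25 (SE 0.19, adjusted p = 0.477). Both Tg comparisons share the 4 Tg libraries.

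In KO against WT none of the 8 was called by edgeR, DESeq2 or limma-voom, where edgeR called 0.0233% of all genes. Gp9 was the single gene of the 8 with an unadjusted p under 0.05 (7.09% of all genes) and the single tested gene without overlap: its KO libraries, 5.44, 3.90 and 5.30 CPM, lay below its WT libraries, 7.82, 6.95, 7.11 and 5.70 CPM. Its log2 fold change was -0.50 (SE 0.20, 95% interval -0.94 to -0.05, adjusted p = 0.670), and 3.71% of all genes had KO wholly below WT. Itga2b had -0.52 (SE 0.24, adjusted p = 0.71) and Itgb3 -0.26 (SE 0.32, adjusted p = 0.900), with overlapping groups. The median over the 8 genes was -0.15, against -0.0053 over all genes. The comparison of Tg with KO and that of KO with WT share the KO libraries, so the low KO values enter both.

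**Figure D2:**
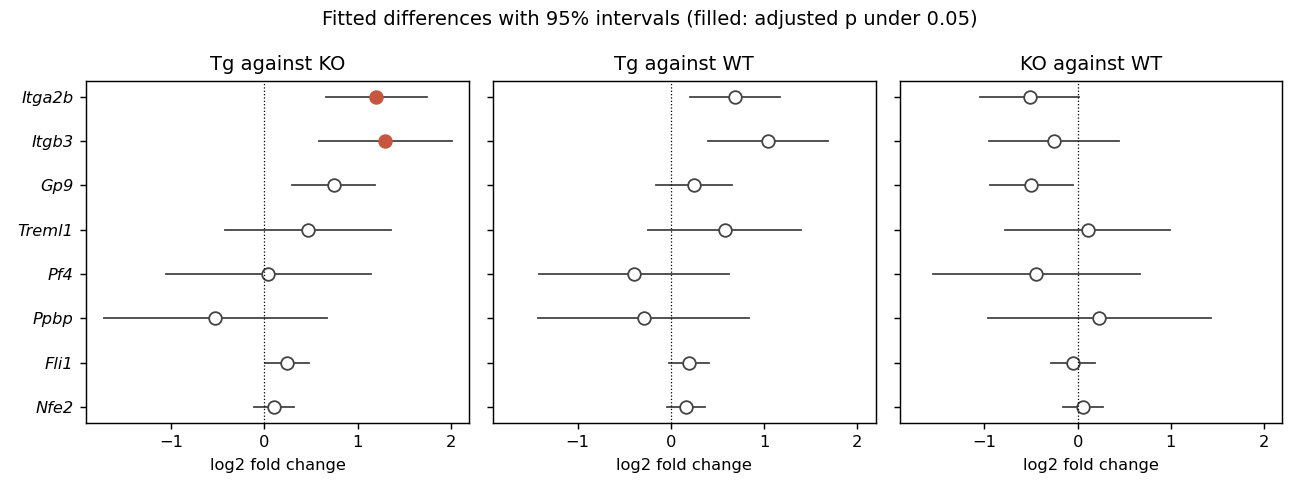
Fitted log2 fold changes (x axis) of the 8 tested genes (rows) in the 3 comparisons, with 95% intervals as lines; filled points had an adjusted p under 0.05. Only Itga2b and Itgb3 in Tg against KO are filled, and the intervals of Pf4 and Ppbp are the widest.

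No granule gene of the 8 was called in any comparison. Pf4, platelet factor 4, held 9.48, 10.6, 19.5 and 8.94 CPM in Tg, 10.6, 5.43 and 19.2 in KO and 8.13, 31.2, 10.6 and 13.9 in WT. One library of each genotype stood high (Tg replicate 3, KO replicate 3 and WT replicate 2), and the groups overlapped in every comparison. The log2 fold change was 0.04 for Tg against KO (95% interval -1.05 to 1.14) and -0.40 for Tg against WT (interval -1.41 to 0.62), the second turning to 0.16 without WT replicate 2. For KO against WT it was -0.44 (interval -1.55 to 0.66). These intervals leave room for changes of more than 2-fold in either direction for Tg against KO, so the data do not show that Pf4 was level.

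Ppbp, the precursor of the neutrophil-attracting platelet chemokine, was sparse, with 8 to 27 counts per Tg library, 16 to 38 per KO library and 7 to 32 per WT library. It averaged 0.49 ± 0.276 CPM in Tg, 0.705 ± 0.195 in KO and 0.600 ± 0.312 in WT. Its log2 fold change was -0.53 (SE 0.55) for Tg against KO, -0.29 (SE 0.52) for Tg against WT and 0.23 (SE 0.55) for KO against WT, none called. Treml1 held 3.58, 4.45, 6.10 and 3.84 CPM in Tg, 2.93, 3.12 and 3.69 in KO and 1.87, 5.13, 3.71 and 1.25 in WT. The WT mice spanned the whole range of both other groups except Tg replicate 3, and no comparison was called (log2 fold change 0.58, SE 0.37, for Tg against WT).

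The transcription factor genes were the most even of the 8. Nfe2 ran from 149.8 to 207.4 CPM over the 11 libraries, a 1.38-fold spread, and Fli1 from 214.7 to 328.3 CPM, a 1.53-fold spread, compared with 6.20-fold for Itgb3 and 5.74-fold for Pf4. Fli1 averaged 270.5 ± 39.8 CPM in Tg, 228.3 ± 19.4 in KO and 236.5 ± 9.51 in WT. Tg replicate 4, the highest for Itgb3, was also the highest for Fli1, at 328.3 CPM. Nfe2 averaged 195.7 ± 12.9 CPM in Tg, 182.2 ± 19.3 in KO and 175.2 ± 17.0 in WT. The log2 fold change of Nfe2 lay between 0.06 (KO against WT) and 0.16 (Tg against WT, 95% interval -0.04 to 0.36), and that of Fli1 between -0.05 (KO against WT) and 0.24 (Tg against KO, interval 0.01 to 0.48, adjusted p = 0.212), none called.

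Within genotypes, that is after the genotype mean of each gene was subtracted from its log2 CPM, the 8 genes did not vary as one block over the 11 libraries. Pearson correlations, given as a description, were 0.56 between Itga2b and Itgb3, 0.65 between Itga2b and Pf4, 0.80 between Itgb3 and Ppbp, 0.76 between Itgb3 and Fli1, and -0.33 between Pf4 and Nfe2. All pairs share the same libraries and their depths. The mean of the standardised values was highest in KO replicate 1 (0.742) and lowest in KO replicate 2 (-0.952). Among 10295 other genes averaging 5 CPM or more, the 8 whose within-genotype values were most like that mean were Ttpal (r = 0.99), Birc6 (0.97), Polh (0.96), Cnst (0.96), Bach2 (0.96), Zfp128 (0.95), Tarbp1 (0.94) and Arpc5l (0.93). With 11 libraries and that many candidates high values arise readily, and no p is given.

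The wider megakaryocyte programme was read from 60 further genes in 4 lists (receptors and adhesion, granule and secreted proteins, transcription factors, and cytoskeleton, signalling and enzymes), of which 57 were tested. In Tg against KO 6 rose and 1 fell, where 2.63% of all genes were called higher and 3.06% lower. In Tg against WT 4 rose and none fell, where 2.54% were called higher and 2.39% lower. At an unadjusted p under 0.05, 12 lay above and 4 below, as did 1881 and 1914 of all 17183 genes. DESeq2 called 7 higher and 4 lower, where it called 1844 genes in all. In KO against WT none was called by edgeR, DESeq2 or limma-voom. At an unadjusted p under 0.05, 2 lay above and 6 below, as did 573 and 645 of all 17183 genes. A fit of Tg and WT alone ended the calls of Esam, Srgn and Ptgs1 (adjusted p = 0.0635, 0.0509 and 0.0562). Medians of the 57 log2 fold changes were 0.10 for both Tg comparisons and -0.07 for KO against WT. Without Tg replicate 1 the number called in Tg against WT was 0, without Tg replicate 2 or WT replicate 1 it was 1, without WT replicate 2 or 4 it was 2 and without WT replicate 3 it was 9. In Tg against KO it was 3 without KO replicate 2 and 4 without KO replicate 1, KO replicate 3 or Tg replicate 1.

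Among receptors and adhesion genes, Esam, an endothelial and platelet adhesion molecule also used to mark stem cells, rose in both Tg comparisons. It averaged 37.2 ± 8.66 CPM in Tg, 17.0 ± 1.99 in KO and 22.3 ± 3.54 in WT (log2 fold change 1.13, SE 0.19, adjusted p = 0.00797 against KO; 0.73, SE 0.17, adjusted p = 0.0345 against WT). Itga6, an integrin subunit of the laminin receptor, rose against KO (268.5 ± 16.7 CPM in Tg and 178.8 ± 19.8 in KO; log2 fold change 0.59, SE 0.093, adjusted p = 0.00621) and missed the threshold against WT (213.9 ± 16.2 CPM in WT; 0.33, SE 0.085, adjusted p = 0.0508), which it passed by DESeq2 (0.0109), with a stricter low-count filter (0.0416), without KO replicate 1 (0.0498) and without WT replicate 3 (0.0342). Itga2 and Cd36 lay lower in Tg and missed the threshold. Itga2 had log2 fold changes of -0.81 against KO and -0.76 against WT (adjusted p = 0.0529 and 0.0587, edgeR), and Cd36 of -2.86 and -3.29 (0.0885 and 0.0551). At an unadjusted p under 0.05, 5 of the 17 genes lay higher and 4 lower against KO, and 2 higher and 4 lower against WT (21.7% and 22.1% of all genes either way). P2ry12, the platelet ADP receptor that macrophages of some tissues also express, fell by 2.05 on the log2 scale against KO (SE 0.46, adjusted p = 0.0283), at 0.281 ± 0.125 CPM in Tg and 1.16 ± 0.358 in KO. The call of P2ry12 was lost without any of KO replicates 1, 2 and 3 and Tg replicates 1, 2 and 4 (adjusted p up to 0.127). Beside it, 3 of 10 tissue macrophage genes fell and none rose in Tg against KO, where 3.06% of all genes were called lower. At an unadjusted p under 0.05, 9 of the 10 were lower, as were 1876 of all 17183 genes, and the median log2 fold change of the 10 was -2.25. None was at 0, and their sum, 28.2 to 128.5 CPM in Tg and 44.8 to 176.0 in KO, was mostly Vcam1 in Tg (61.6 CPM on average in Tg, 26.6 in KO), which was the 1 gene of the 10 that lay higher in Tg. The part of such cells was not tested. The call of Esam against WT was lost without any of 7 libraries (KO replicate 1, Tg replicates 1, 2 and 3, WT replicates 1, 2 and 4; adjusted p up to 0.107), whereas its call and that of Itga6 against KO held without each of the 11 libraries in turn. The other subunits of the von Willebrand factor receptor, Gp1ba and Gp5, were not called in any comparison (Gp1ba averaged 4.73 CPM in Tg, 3.93 in KO and 4.46 in WT; Gp5 averaged 11.1 CPM in Tg, 7.72 in KO and 10.2 in WT).

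Of the granule and secreted genes, Clu (clusterin) rose by 3.20 on the log2 scale in Tg against KO (SE 0.55, adjusted p = 0.00937), at 16.9 ± 11.9 CPM in Tg, 1.83 ± 0.442 in KO and 5.07 ± 2.82 in WT. Its rise was 2.57 without Tg replicate 4, and the call was lost without KO replicate 2 (adjusted p = 0.0517). Against WT it was not called (log2 fold change 1.73, SE 0.46, adjusted p = 0.0551), but was by DESeq2 (adjusted p = 0.0140), without a low-count filter (0.0331) and without WT replicate 2 (0.0453); without Tg replicate 4 the log2 fold change was 1.11. Srgn (serglycin, the granule proteoglycan of many blood cells) rose against WT (851.5 ± 197.7 CPM in Tg and 480.3 ± 70.1 in WT; 0.83, SE 0.17, adjusted p = 0.0216) and was not called against KO (0.62, SE 0.18, adjusted p = 0.0712), except by DESeq2 (0.0101) and without Tg replicate 3 (0.0104). The Srgn call was lost without any of Tg replicates 1 and 2 and WT replicates 1 and 2 (adjusted p up to 0.0685). Granulocyte-monocyte progenitor genes, of cells that also carry Srgn, rose for 5 of 6 members in Tg against WT, where 2.54% of all genes were called higher. Against KO 2 of the 6 rose, where 2.63% of all genes were called higher. Csf1r lay lower in Tg than in KO and was not called (log2 fold change -0.58). The part of these cells in the rise of Srgn was not tested.

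Among transcription factors, Mafg, a small Maf protein that pairs with the product of Nfe2, rose in both Tg comparisons by a small amount with little spread. It averaged 62.7 ± 2.34 CPM in Tg, 49.5 ± 0.941 in KO and 48.8 ± 3.38 in WT, and the Tg libraries overlapped with neither group (log2 fold change 0.34, SE 0.071, adjusted p = 0.0204 against KO; 0.36, SE 0.065, adjusted p = 0.0146 against WT). The call against WT was lost without Tg replicate 1 (adjusted p = 0.0524) and that against KO without any of KO replicates 1, 2 and 3 and Tg replicate 1 (adjusted p up to 0.0999). The other 11 factors, among them Gata2, Runx1 and Tal1, were not called in any comparison.

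Of the cytoskeletal, signalling and enzyme genes, Ptgs1, the cyclooxygenase that platelets use to make thromboxane, rose in both Tg comparisons. It averaged 77.1 ± 16.1 CPM in Tg, 36.3 ± 6.10 in KO and 49.3 ± 4.51 in WT (log2 fold change 1.09, SE 0.17, adjusted p = 0.00536 against KO; 0.65, SE 0.15, adjusted p = 0.0351 against WT). The call against KO held without each of the 11 libraries in turn, and that against WT was lost without any of 8 (KO replicate 2, Tg replicates 1, 2 and 4, WT replicates 1, 2, 3 and 4; adjusted p up to 0.108). Nrgn, a calmodulin-binding protein found in platelets, rose by 0.45 against KO (SE 0.10, adjusted p = 0.0308; 66.6 ± 5.17 CPM in Tg and 48.7 ± 4.30 in KO), a call lost without any of KO replicates 1, 2 and 3 and Tg replicates 1, 2 and 3 (adjusted p up to 0.128). Tubb1, the platelet beta tubulin, averaged 0.475 CPM in Tg, 0.733 in KO and 0.562 in WT and was not called. In KO against WT, the 3 genes with the lowest p were Fcer1g, which encodes the signalling partner of the collagen receptor (log2 fold change 0.77, SE 0.22, adjusted p = 0.479), Clu (-1.47, SE 0.52, adjusted p = 0.637) and Itga6 (-0.26, SE 0.093, adjusted p = 0.639).

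**Figure D3:**
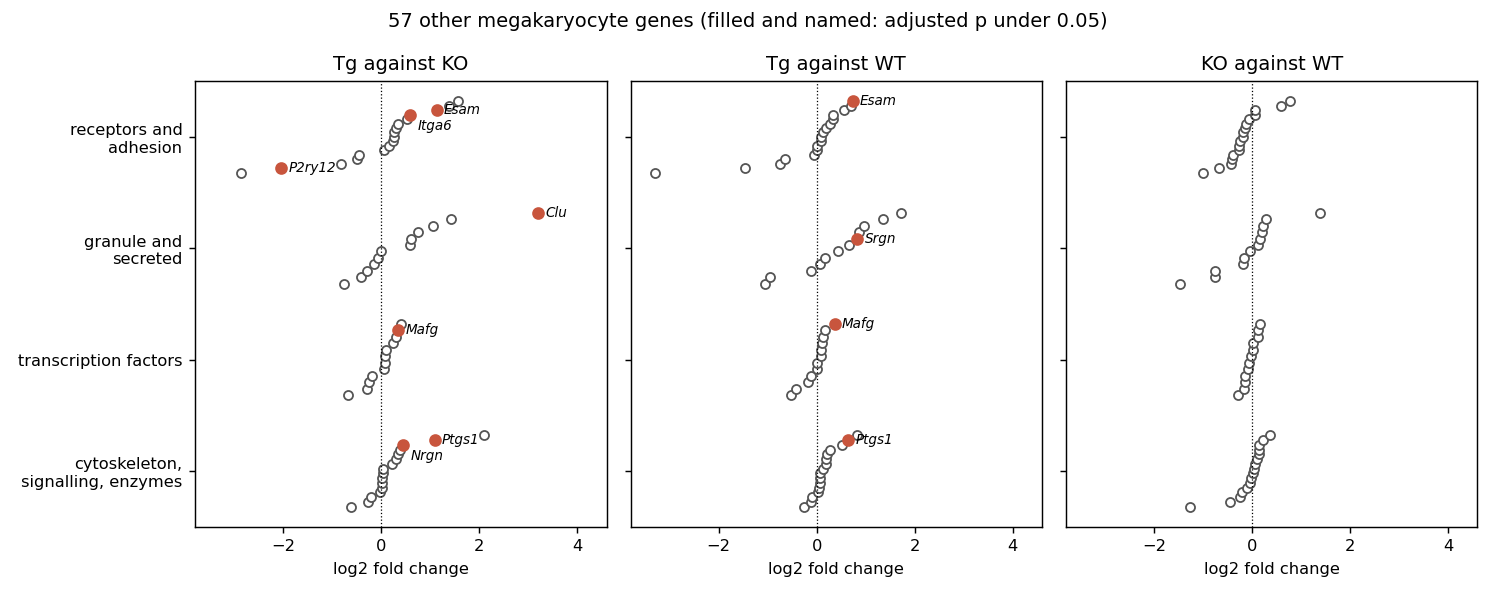
Log2 fold changes (x axis) of 57 further megakaryocyte genes in 4 lists (rows), by comparison; each point is a gene, and filled, named points had an adjusted p under 0.05. Of 57 genes, 7 are named in Tg against KO, 4 in Tg against WT and none in KO against WT.

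Markers of other cells were read beside these genes. The summed level of the 10 genes was 646.7 to 796.4 CPM in Tg, 466.9 to 601.4 in KO and 548.4 to 596.7 in WT, so Tg lay above both other groups with TMM scaling; with plain totals Tg replicate 2 held 594.3 CPM and the groups overlapped (KO up to 602.9, WT up to 625.9). Fli1 and Nfe2 made up 37.6% and 27.2% of it in Tg. The 7 stem cell genes summed to 453.1 to 745.3 CPM in Tg, 471.9 to 541.3 in KO and 383.5 to 689.4 in WT, with overlapping groups. Of these, Procr alone was called (log2 fold change 1.02 in Tg against KO, adjusted p = 0.0413), where 2.63% of all genes were called higher. Against KO 6 of the 7 lay higher in Tg and 1 lower, with a median log2 fold change of 0.54. At an unadjusted p under 0.05, 3 were higher and 0 lower, as were 1845 and 1876 of all 17183 genes. Against WT 5 lay higher and 2 lower, with a median of 0.089. Hlf made up most of the stem cell sum (298.4 CPM on average in Tg, 303.7 in KO and 292.5 in WT). All 12 erythroid genes lay below KO and below WT in Tg, of which 1 fell against KO (3.06% of all genes) and 2 against WT (2.39% of all genes). At an unadjusted p under 0.05, 5 were lower against KO and 7 against WT, as were 1876 and 1914 of all 17183 genes. Their median log2 fold changes were -0.997 against KO and -1.86 against WT. Their sum was 198.8 to 421.2 CPM in Tg, 417.5 to 456.7 in KO and 341.5 to 698.8 in WT, and Car2 made up most of it (248.9 CPM on average in Tg, 311.6 in KO and 401.1 in WT). Erythroid cells share a progenitor with megakaryocytes. The 6 granulocyte-monocyte progenitor genes summed to 4878 to 24066 CPM in Tg, 3834 to 4971 in KO and 1419 to 3561 in WT, and none of the stem cell, erythroid and granulocyte-monocyte progenitor genes was at 0 except 2 erythroid genes in Tg replicate 3. Tg replicate 3, with 4878 CPM, lay within the KO range of that list and had the highest Itga2b and Gp9. The 6 B and plasma cell genes summed to 193.3 to 256.5 CPM in Tg, 1287 to 6157 in KO and 331.6 to 4751 in WT, so that Tg lay below both other groups. Of the 6, 3 fell against KO and 2 against WT (3.06% and 2.39% of all genes). All 6 were lower at an unadjusted p under 0.05 in both comparisons, as were 1876 genes against KO and 1914 against WT of all 17183. Ms4a1 was at 0 in Tg replicates 1, 2 and 3. The 6 neutrophil genes summed to 45.8 to 590.2 CPM in Tg, 29.7 to 64.6 in KO and 9.26 to 102.5 in WT. Of the 5 tested, 3 lay higher in Tg than in KO and WT and 2 lower, and none was called. S100a8, among the higher, averaged 236.0 CPM in Tg, 21.3 in KO and 18.3 in WT. The lower were Ltf (1.30 CPM in Tg, 1.88 in KO, 2.23 in WT) and Ngp (5.67, 7.54 and 8.78). Ly6g did not pass the filter. It was at 0 in every Tg library, but also in KO replicate 1 and WT replicate 1. The part of all these cells in the integrin result was not tested.

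**Figure D4:**
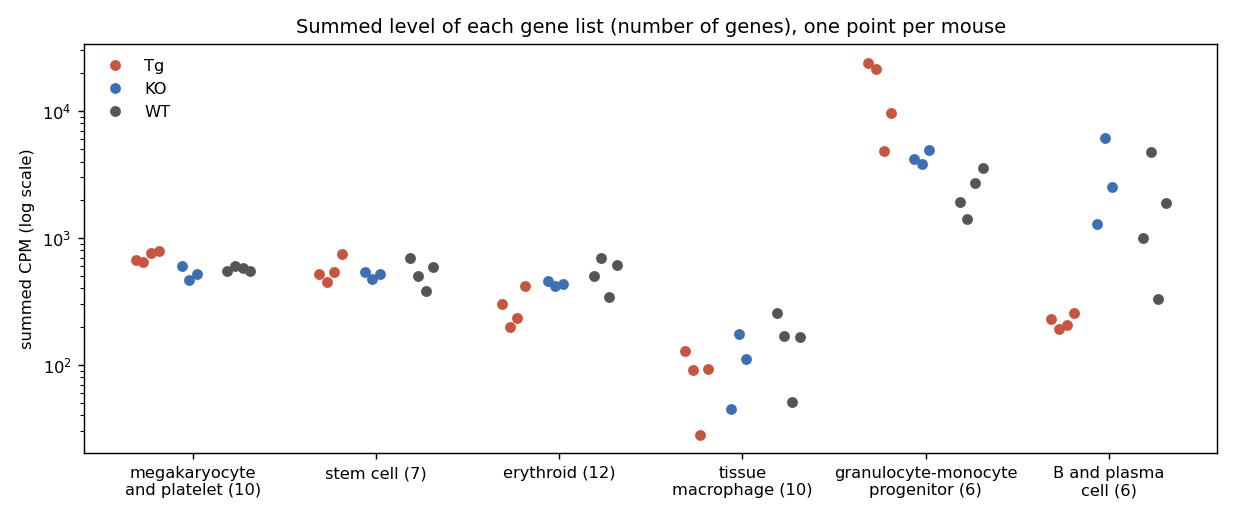
Summed CPM (log axis) of 6 gene lists in each mouse, with Tg left of KO and WT. The megakaryocyte and platelet sum is higher in all 4 Tg mice (646.7 to 796.4 CPM) than in KO and WT mice with TMM scaling (not with plain totals), and the granulocyte-monocyte progenitor sum spans the widest range in Tg (4878 to 24066 CPM).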

How the data were processed

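LSK cells of 11 mice were profiled by RNA sequencing. The values the authors deposited are read counts, whole numbers for each gene symbol with no scaling. Per the submitters' processing notes, reads went through FastQC, Trimmomatic, STAR and HTSeq on mm10; the sources used here give no version, annotation, strand setting or filter. The 10 genes and all lists were chosen with earlier results of these data known. One edgeR 4.0.16 model (R 4.3.3; TMM, filterByExpr, no covariate, 8 residual and 3.43 prior degrees of freedom) held all libraries, and p-values, adjusted over 17183 genes, measure the spread between mice. Each SE is the log2 fold change over the square root of F. Alternatives were DESeq2 1.42.0, limma-voom (limma 3.58.1), RLE or upper-quartile scaling, plain totals, no low-count filter or one of 2 CPM in 3 libraries, pairwise fits, a block for replicate number, and omission of single libraries. Named genes were the 10, Phf6, and list genes called in a comparison or, where under 3 were, the 3 with the lowest p. Gp1ba, Gp5, Itga2, Cd36, Tubb1, Gata2, Runx1, Tal1, Procr, Cd3e, Nkg7, Ighm, Vcam1, Car2, Csf1r, Ms4a1, S100a8, Ltf, Ngp and Ly6g were added after their values were seen. Levels between genes use GENCODE M21 exons (GRCm38), and promoter windows are RefSeq's (GRCm38.p6), matched by symbol for 7 genes. The fit was first tested on simulated data, with changes set in genes averaging 5 CPM or more. By comparison, it called 31.3% to 41.8% of 1.5-fold changes, 77.6% to 82.1% of 2-fold and 97% to 100% of 4-fold. A gene that was not called may therefore still have changed by a small fold.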

Additional observations from a re-analysis of the deposited data

Results flagged for a closer look

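Within groups of 4 mice, 1 library stood apart from the other 3 by Dixon's test at the 95% level for 4 of 22 groups tested, where chance flags about 1 in 20 groups. Pf4 in Tg was highest in replicate 3, at 19.5 CPM, with the next library at 10.6 CPM. Nfe2 in WT was lowest in replicate 2, at 149.8 CPM, with the next at 181.1 CPM. Gp1bb in WT reached 0.0922 CPM in replicate 2 and 0 in the others. Gp6 in Tg reached 0.0250 CPM in replicate 1 and 0 in the others. The values of Gp1bb and Gp6 rest on 3 and 1 counts, within the limit that a count of 0 allows. With the other libraries at 0, any count above 0 is flagged, so the rate of 1 in 20 does not apply to these groups.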

How the results depend on the processing

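The call of Itga2b in Tg against KO held under all 8 other settings, and that of Itgb3 under 6 of 8. DESeq2 called more genes: 107 in KO against WT, 1844 in Tg against WT and 1874 in Tg against KO, where edgeR called 4, 846 and 978. It called 2 of the 10 genes in Tg against WT (0 by edgeR), and 11 and 13 further megakaryocyte genes in Tg against WT and Tg against KO (4 and 7 by edgeR). In KO against WT limma-voom, the pairwise fit and the replicate block called 1 gene each. The pairwise fit called 358 genes and 1 further megakaryocyte gene in Tg against WT, and 1 of the 10 in Tg against KO; without a filter 1 of the 10 was called in Tg against WT. Of 10 same-numbered pairs of libraries, 0 had a correlation of deviations over 0.1 (-0.245 to 0.096, other pairs -0.344 to 0.308). With deviations taken within so few mice per group, this cannot exclude a pairing by replicate number. The labels do not say what the numbers mean. With the replicate block 221 genes were called in Tg against WT and 303 in Tg against KO, with 0 and 4 further megakaryocyte genes, and 1 of the 10, Itga2b, in Tg against KO.

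With single libraries left out, genes called numbered 1 to 4 in KO against WT, 211 to 1076 in Tg against WT and 287 to 1096 in Tg against KO; further megakaryocyte genes 0 to 9 in Tg against WT and 3 to 10 in Tg against KO; and the 10 genes 0 to 2 in Tg against KO. Uncalled log2 fold changes that changed sign were, in KO against WT, Pf4 (-1.003 to 0.11), Ppbp (-0.055 to 0.59), Nfe2 (-0.032 to 0.10), Treml1 (-0.14 to 0.50) and Mafg (-0.0075 to 0.066; -0.012 with upper-quartile scaling), in Tg against WT Pf4 (-0.73 to 0.16) and Ppbp (-0.67 to 0.069), and in Tg against KO Pf4 (-0.30 to 0.59). The cause of these changes was not tested. Ppbp, Gp1bb and Gp6 rest on at most 38 counts in any library.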

Other observations

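The ratio of Itga2b to Pf4 counts within a library, chosen after the values were seen, was 15.5, 12.1, 9.94 and 16.7 in Tg, 8.07, 8.52 and 3.61 in KO and 8.55, 3.77, 11.2 and 5.58 in WT. It depends on neither depth nor scaling. Tg libraries lay above all KO libraries and overlapped with WT replicate 3. The ratio of Itgb3 to Pf4 counts was 5.85, 4.76, 3.77 and 12.7 in Tg, 3.87, 3.37 and 1.55 in KO and 3.68, 1.53, 2.69 and 2.60 in WT, so that KO replicate 1 lay within the Tg range. The summed receptor and adhesion list, which does not hold the 10 genes, was 719.4 to 838.3 CPM in Tg, 552.9 to 609.5 in KO and 632.8 to 671.0 in WT, and the groups did not overlap with TMM scaling. With plain library totals it was 661.1 to 811.8 CPM in Tg, 551.8 to 611.0 in KO and 656.8 to 686.0 in WT, so that Tg and WT overlapped.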
